A study of Homo sapiens with 27 samples.

Results

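The comparison described here was between confluent U2OS cells carrying the shRNA sh2 against MMP2 and confluent U2OS cells carrying the empty vector, across every gene with enough reads to test. It used 6 of the 27 libraries of the study, and 19063 of the 55882 gene symbols in the count files passed the filter on low counts. U2OS is an established human osteosarcoma line that grows as adherent, mesenchymal-like cells. The cells were transduced with lentivirus and selected in puromycin, so that both groups carried the pLKO.1 vector and its resistance gene. The 3 control libraries (pLKO.1 control) held the vector without a hairpin, and the 3 MMP2sh2 libraries held the same vector expressing 1 hairpin, numbered 26 in the labels. Both groups were collected at day 0, when cells plated at 30% confluence 2 days earlier had become confluent. The study also collected a second hairpin line, MMP2sh1, and all 3 lines at day -2 (subconfluent) and day +2 (overconfluent). The study describes the 3 libraries of a group as independent biological replicates of 1 stable line, so the p-values below measure the spread within lines, and the action of the hairpin on MMP2 cannot be told apart from any other difference between the lines.

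MMP-2 (gelatinase A) is a zinc-dependent protease that is secreted as a zymogen, is activated at the cell surface by MMP-14 together with TIMP-2, and cleaves gelatin, type IV collagen and other matrix proteins. A nuclear pool of the enzyme can also clip the N-terminal tail of histone H3, and the study was designed around that activity in U2OS cells. An shRNA is processed into a short guide strand that leads to degradation of the matching mRNA, so a stable line expressing it holds less of the target throughout.

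The confluent control libraries held 40449661 to 45180727 reads on genes and the MMP2sh2 libraries 36286940 to 38005772. On the first principal component of the 500 most variable genes, which held 27.8% of the variance, the lines separated, and MMP2sh2 replicate 2 stood apart from the other MMP2sh2 libraries on the second (-22.1 against 4.85 and 16.3). The mitochondrially encoded genes took 4.67% to 5.42% of the reads in the control and 5.21% to 5.63% in MMP2sh2. The 28S ribosomal RNA entry RNA28S5, whose reads in poly(A)-selected libraries are carry-over, was at 1140, 1278 and 1328 CPM (reads scaled to library size) in the control and at 2481, 1947 and 1855 CPM in MMP2sh2. Its fold change on the log2 scale was 0.75 ± 0.06 (SE), and its part in the results below was not tested. The 18S entry RNA18S5, named after its values were seen, did not show this separation. It had 1908, 2426 and 1422 reads in the control and 1788, 1156 and 1204 in MMP2sh2, not scaled to library size. Of 10 tested mesenchymal markers 2 were higher and 2 lower in MMP2sh2 (40% called, against 12.9% of all genes tested). Of 8 epithelial markers 1 was higher and 1 lower (25%), and none of 5 tested blood and endothelial markers was called. The summed level of that last list was 7.44 to 7.78 CPM in the control and 5.24 to 7.15 CPM in MMP2sh2.

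Of the 19063 genes tested, 2456 (12.9%) differed between the lines at an adjusted p under 0.05 (edgeR quasi-likelihood F test, Benjamini-Hochberg). In MMP2sh2, 1348 (7.07%) were higher and 1108 (5.81%) were lower. Most of these differences were small. A called gene differed by 0.27 log2 units at the median, whichever the direction, 2118 changed by less than 1.5-fold, and 131 changed by more than 2-fold, of which 39 were higher and 92 lower. The groups did not overlap in 2351 of the called genes, against 5429 (28.5%) of all genes tested, 14.7% with MMP2sh2 above and 13.8% with it below. The share called followed the number of reads behind a gene, from 1.47% of genes under 1 CPM to 6.54% at 1 to 10 CPM, 17.8% at 10 to 100 CPM and 30.0% above 100 CPM. The counts of gene lists below are to be read beside these shares, and were not matched for read level. Among genes with a position in the annotation, 15.9% of the protein-coding genes, 7.55% of the long non-coding RNAs and 4.21% of the pseudogenes were called. In simulated counts with the means and depth of these libraries, 75.5% of genes changed 2-fold were recovered. Smaller changes, which most called genes showed, were not simulated, so the share of them that the test detects is not known. Without MMP2sh2 replicate 2 the count of called genes was 1509, with 806 higher and 703 lower.

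**Figure D1:**
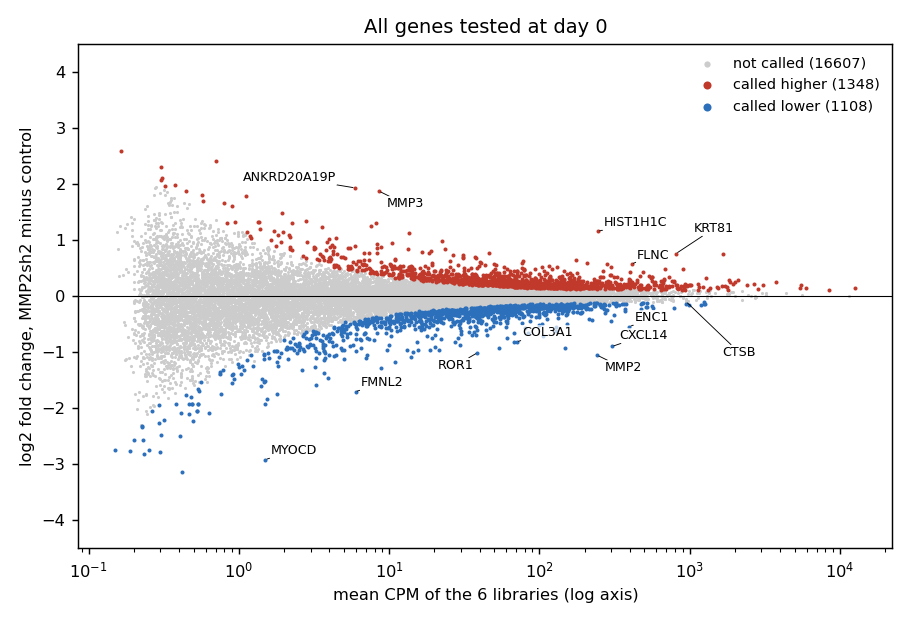
Each point is 1 of the 19063 genes tested, with its mean CPM over the 6 libraries on a log axis and its log2 fold change, MMP2sh2 minus control; red points (1348) were called higher and blue points (1108) lower. Called genes above 100 CPM mostly lie close to 0, with HIST1H1C and MMP2 among those farther out, and the largest changes belong to genes with few reads; 2 called genes with no read in MMP2sh2, CDKN2B and TP73-AS1 (the latter named after its values were seen), lie below the axis.

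The target itself was lower in every MMP2sh2 library. MMP2 (chr16:55423612-55540603, plus strand, GRCh37) was at 321, 329 and 335 CPM in the control and at 154, 159 and 160 CPM in MMP2sh2. The groups did not overlap, and the fitted log2 fold change was -1.06 ± 0.04 (SE, adjusted p = 6.2e-20), the smallest p of the comparison. In bulk RNA, fewer cells with the transcript and less of it per cell cannot be told apart. MMP3 (stromelysin-1), which cleaves proteoglycans and non-fibrillar collagens, went the other way: 3.46, 3.92 and 3.66 CPM in the control, 11.6, 14.9 and 13.9 CPM in MMP2sh2. Its log2 fold change was 1.87 ± 0.14 (adjusted p = 1.7e-12), and every MMP2sh2 library was above every control library. MMP14, the membrane-bound activator of pro-MMP-2, was at 145, 142 and 148 CPM in the control and at 131, 122 and 117 CPM in MMP2sh2. That difference was -0.23 ± 0.05 on the log2 scale (adjusted p = 0.00087), a fall of much smaller size than that of MMP2. The inhibitors did not pass the test. TIMP2 was at 390 to 395 CPM in the control and at 375 to 387 CPM in MMP2sh2 (log2 fold change -0.05, adjusted p = 0.50), and TIMP1 was at 504 to 534 against 490 to 549 CPM (-0.01, adjusted p = 0.91).

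Of the 17 tested genes on the list of MMP-2, its regulators and other matrix metalloproteinases, 1 was higher and 4 were lower, with a median log2 fold change of 0.04 beside -0.00 for all genes tested. The remaining lower members were MMP13 (collagenase-3; 3.61 ± 0.667 against 1.83 ± 0.435 CPM, mean ± SD, n = 3) and MMP7 (matrilysin; 5.11 ± 1.11 against 3.43 ± 0.392 CPM), the last named to complete the count after its values were seen. Leaving out control replicate 1 gave MMP7 an adjusted p of 0.25. CTSB, the lysosomal cysteine protease cathepsin B, was at 979, 987 and 984 CPM in the control and at 904, 942 and 903 CPM in MMP2sh2. The MMP2sh2 libraries all lay below the control, by -0.10 ± 0.04 on the log2 scale, with an adjusted p of 0.052 in the edgeR quasi-likelihood test. Without MMP2sh2 replicate 2 that adjusted p was 0.027. Of 14 alternative fits 6 called CTSB lower, and the highest adjusted p among the 14 was 0.31. Of 16 tested cathepsins and cystatins 1 was higher and none lower (6.25% called, against 12.9% of all genes tested). With a correction for transcript GC content and length, added after seeing the data, 1 was higher and 3 were lower.

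Matrix genes moved in both directions. Of 34 tested collagens 7 were higher and 4 lower (median log2 fold change -0.09). The type III collagen gene COL3A1, a fibrillar collagen of soft connective tissue, was at 92.1, 88.4 and 90.2 CPM in the control and at 46.1, 51.8 and 55.7 CPM in MMP2sh2, groups that were far apart (-0.82 ± 0.06, adjusted p = 2.1e-12). Lower as well were COL5A2, a chain of the fibril-regulating type V collagen (170 against 137 CPM, log2 fold change -0.31), and COL1A1, a chain of type I collagen (-0.15). Higher were COL12A1, a fibril-associated collagen (311 against 383 CPM, 0.30), and COL13A1, a transmembrane collagen (9.58 against 17.1 CPM, 0.83 ± 0.10). Without MMP2sh2 replicate 1 the collagens called lower were 2.

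Of 54 tested matrix glycoproteins and matrix-modifying genes 8 were higher and 14 lower (median -0.07). TGFBI, a secreted adhesion protein that binds collagens and integrins, was at 132, 136 and 144 CPM in the control and at 211, 228 and 208 CPM in MMP2sh2 (0.65 ± 0.05, adjusted p = 1.4e-12). Of the microfibril-associated genes on the list 2 were called, in opposite directions. MFAP5 was at 12.7 to 17.3 CPM in the control and 28.9 to 31.5 CPM in MMP2sh2 (0.97 ± 0.09). MFAP2 was at 98.1 to 104 CPM and 70.0 to 75.7 CPM (-0.45 ± 0.05). MFAP4, named after its values were seen, was not called (2.99 against 2.01 CPM, -0.58). SDC4, a transmembrane heparan sulfate proteoglycan of focal adhesions, was higher (124 against 169 CPM, 0.45). Without control replicate 2, or without MMP2sh2 replicate 3, the matrix genes called lower were 9.

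Integrins and laminins, the cell surface receptors for matrix and the basement membrane proteins they bind, had 5 members higher and 7 lower of 30 tested (median -0.08). LAMA4, the laminin alpha-4 chain, was at 33.6, 38.2 and 36.3 CPM in the control and at 22.9, 21.3 and 19.9 CPM in MMP2sh2 (-0.75 ± 0.08, adjusted p = 7.1e-09). LAMB1, the beta-1 chain, was lower (129 against 96.2 CPM, -0.42), and so was ITGA11, a collagen-binding integrin chain (6.25 ± 0.851 against 3.29 ± 0.820 CPM, -0.93 ± 0.18). ITGA3, part of a laminin-binding integrin, was higher (760 against 873 CPM, 0.20). The 5 higher members became 3 without MMP2sh2 replicate 1 or 2 and 2 without control replicate 1. Of 28 tested ADAM and ADAMTS proteases 4 were higher and 2 lower (21.4% called, against 12.9% of all genes tested).

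**Figure D2:**
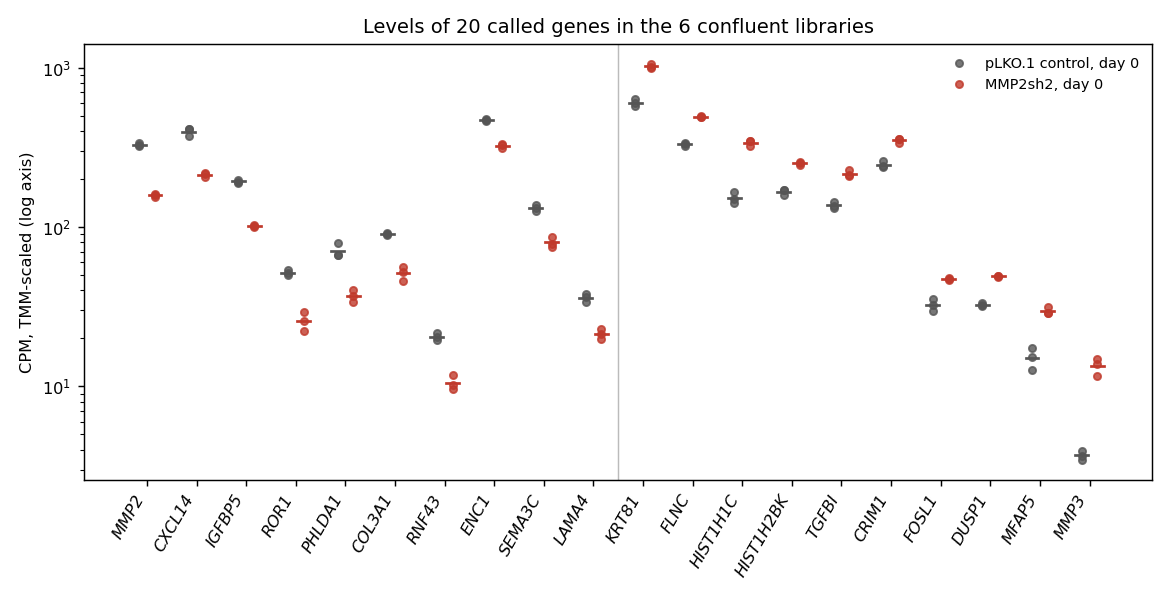
CPM on a log axis of 20 called genes in the 6 confluent libraries, control in grey and MMP2sh2 in red; points are libraries and bars are group means. The groups are apart in every gene shown: the 10 on the left (MMP2 to LAMA4) are lower in MMP2sh2 and the 10 on the right (KRT81 to MMP3) are higher.

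Several secreted ligands and their binding proteins were among the genes with the smallest p. CXCL14, a chemokine made by stromal and epithelial cells, was at 410, 371 and 411 CPM in the control and at 218, 215 and 206 CPM in MMP2sh2 (-0.90 ± 0.04, adjusted p = 1.9e-17). IGFBP5, which binds insulin-like growth factors and is retained in bone matrix, was at 198, 190 and 191 CPM in the control and at 102, 104 and 99.7 CPM in MMP2sh2 (-0.93 ± 0.05, adjusted p = 2.0e-17). Both genes fell to levels that did not approach any control library. Related binding proteins rose: IGFBP4 (123 ± 5.46 against 158 ± 2.98 CPM, 0.37 ± 0.05) and IGFBP6 (41.9 ± 1.66 against 61.2 ± 1.07 CPM, 0.55 ± 0.06). Of 33 tested growth factors, receptors and binding proteins 8 were higher and 7 lower (median 0.09). Both receptors of platelet-derived growth factor were lower, PDGFRA at 21.9 against 14.9 CPM (-0.55) and PDGFRB at 71.9 against 58.1 CPM (-0.31).

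WNT signalling controls osteoblast commitment, and of 44 tested WNT and Notch genes 1 was higher and 9 were lower (median -0.08). RNF43, a ubiquitin ligase that removes WNT receptors from the surface, was at 21.5, 20.4 and 19.4 CPM in the control and at 11.7, 9.59 and 10.1 CPM in MMP2sh2 (-0.97 ± 0.10, adjusted p = 6.6e-09). LGR4, a receptor for the R-spondins that antagonise RNF43, was lower too (58.3 against 40.1 CPM, -0.54). The higher member was WNT7B, a WNT ligand (3.89 ± 0.717 against 6.24 ± 0.896 CPM), which had an adjusted p of 0.062 without MMP2sh2 replicate 2. ROR1, a receptor tyrosine kinase that binds WNT5A and is not on that list, was at 49.6, 53.9 and 51.4 CPM in the control and at 29.1, 22.1 and 25.6 CPM in MMP2sh2 (-1.01 ± 0.08, adjusted p = 4.2e-12), with no overlap.

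Of 15 tested osteoblast lineage genes none was higher and 5 were lower (median -0.16), among them CDH11, the osteoblast cadherin, at 38.2 to 39.9 CPM in the control and 27.9 to 30.1 CPM in MMP2sh2 (-0.41 ± 0.07). Without MMP2sh2 replicate 1 the count was 2 and without control replicate 1 it was 3. Of 42 tested semaphorin, ephrin, plexin and slit genes 4 were higher and 9 lower (median -0.05). Without control replicate 2 those 9 were 5. The secreted semaphorin SEMA3C fell from 126 to 137 CPM in the control to 74.5 to 86.9 CPM in MMP2sh2 (-0.71 ± 0.05), and the membrane-anchored SEMA7A rose from 26.7 to 31.7 CPM to 45.4 to 48.3 CPM (0.67 ± 0.07).

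Genes of the cytoskeleton and cell cortex were among the rises with the smallest p. KRT81, a type II hair keratin, was at 598, 574 and 640 CPM in the control and at 995, 1058 and 1014 CPM in MMP2sh2 (0.76 ± 0.04, adjusted p = 1.1e-16). FLNC, the actin cross-linker filamin C, was at 322, 338 and 333 CPM in the control and at 487, 501 and 488 CPM in MMP2sh2 (0.57 ± 0.04, adjusted p = 4.2e-13). PTRF, the caveolar coat protein cavin-1, was higher as well (751 against 1046 CPM, 0.48 ± 0.04). Among the falls were PHLDA1, a pleckstrin homology-like protein induced by growth signals (79.1, 66.9 and 66.4 against 36.8, 33.9 and 40.3 CPM; -0.93 ± 0.07), and ENC1, an actin-binding kelch protein (466 to 478 against 312 to 331 CPM; -0.55 ± 0.04). KRT14, a basal keratin, fell at a lower level (5.42 ± 1.15 against 2.59 ± 0.351 CPM). Of 22 tested contractile and actin-associated genes 4 were higher and 1 lower (22.7% called, against 12.9% of all genes tested).

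Immediate early and AP-1 genes, which respond to growth factor and stress signals within minutes, had 7 members higher and 1 lower of 27 tested (median 0.16). DUSP1, a phosphatase that switches off MAP kinases, was at 31.9 to 33.5 CPM in the control and 48.6 to 49.6 CPM in MMP2sh2 (0.59 ± 0.06, adjusted p = 2.2e-08). FOSL1, an AP-1 subunit, was at 35.5, 29.6 and 32.2 CPM against 47.6, 47.1 and 46.3 CPM (0.53 ± 0.07). The growth regulator MYC was at 91.7 ± 6.14 CPM against 125 ± 1.97 CPM (0.44 ± 0.05). In all 3 genes every MMP2sh2 library was above every control library.

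Of 26 tested YAP target and CCN family genes 9 were higher and 5 lower (median 0.08). The CCN family members went opposite ways, CYR61 from 257 to 334 CPM (0.38 ± 0.04) and NOV from 169 to 133 CPM (-0.34 ± 0.06). CRIM1, a transmembrane protein that binds bone morphogenetic proteins (246 against 351 CPM, 0.51), and FJX1, a secreted relative of the Drosophila four-jointed protein (85.5 against 123 CPM, 0.52), were also higher. Of 20 tested cytokine and NF-kB target genes 6 were higher and 2 lower (median 0.25). The higher genes included NFKB2, an NF-kB subunit (57.9 ± 0.309 against 75.5 ± 8.23 CPM), and BIRC3, an inhibitor of apoptosis (3.89, 2.75 and 2.04 against 6.58, 4.18 and 7.15 CPM; 1.04 ± 0.21). Besides CXCL14 the lower gene was the monocyte chemokine CCL2 (3.87 ± 0.240 against 2.44 ± 0.568 CPM, adjusted p = 0.033), which lost its call without any of 5 of the 6 libraries (adjusted p = 0.060 to 0.19). Without MMP2sh2 replicate 2 the higher members were 3.

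Stress-protective genes were examined as a list of NRF2 targets and the metallothioneins. Of 21 tested NRF2 targets 5 were higher and none lower, among them TXNRD1, thioredoxin reductase (235 against 299 CPM, 0.34 ± 0.04), and SRXN1, which repairs oxidised peroxiredoxins (2.64 ± 0.425 against 5.31 ± 0.371 CPM, 1.01 ± 0.19). Without MMP2sh2 replicate 1 that count was 3. Without control replicate 2, 2 NRF2 targets were called lower, and with the correction for GC content and length 6 were higher and 5 lower. Of 3 tested metallothioneins, small metal-binding proteins, 2 were higher: MT2A (461, 377 and 419 against 575, 605 and 508 CPM; 0.43 ± 0.05) and MT1E (138 ± 14.0 against 182 ± 10.4 CPM; 0.40 ± 0.05). The metallothioneins are near-identical in sequence, and unique reads may be split unevenly between them.

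Of 20 tested genes of cholesterol synthesis 8 were higher and none lower (median 0.13). DHCR7, a reductase of the last steps of the pathway, went from 102 to 122 CPM (0.26 ± 0.05). The count fell to 5 without MMP2sh2 replicate 1 or control replicate 1, to 4 without MMP2sh2 replicate 3 and to 3 without MMP2sh2 replicate 2 or control replicate 2. Of 34 tested genes of glycolysis and the hypoxia response 10 were higher and 1 lower (median 0.10), among them the enzymes ENO1 (2864 against 3271 CPM, 0.19) and HK2 (22.1 against 29.3 CPM, 0.40). Without MMP2sh2 replicate 2 the 10 became 5. Of 28 tested cell cycle inhibitors and p53 targets 6 were higher and 2 lower (28.6% called, against 12.9% of all genes tested). GADD45A, a stress-induced growth arrest gene, was at 30.1 to 34.1 CPM in the control and 43.8 to 51.5 CPM in MMP2sh2 (0.60 ± 0.07). The 6 became 3 without MMP2sh2 replicate 2 or control replicate 2.

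CDKN2B, which encodes the CDK4 inhibitor p15, had 38, 13 and 30 reads in the control libraries and 0 reads in each MMP2sh2 library. Against a floor of 3 counts over the MMP2sh2 group, its mean control level of 0.617 CPM was at least 22.5-fold higher. Other genes with few reads moved far as well. MYOCD, a co-activator of serum response factor in muscle, was at 2.33 to 2.92 CPM in the control and 0.279 to 0.448 CPM in MMP2sh2 (-2.92 ± 0.35). FMNL2, a formin that elongates actin filaments, was at 8.69 to 9.64 CPM against 2.15 to 3.47 CPM (-1.71 ± 0.16). The long non-coding RNA LINC00707 rose from 4.73 ± 0.662 CPM to 11.7 ± 0.401 CPM (1.31 ± 0.13). The ankyrin repeat pseudogene ANKRD20A19P was at 2.24 to 2.65 CPM against 8.71 to 9.99 CPM (1.93 ± 0.16), an uncertain value because the family holds near-identical copies.

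Histone genes showed a rise limited to a few members. The summed level of the 33 tested histone genes was 531 to 559 CPM in the control and 846 to 869 CPM in MMP2sh2. Of the 33, 6 were higher and 1 lower, with a median log2 fold change of 0.05. With the correction for GC content and length, 5 of 29 were higher and 3 lower (median -0.11). HIST1H1C, a linker histone gene, was at 150, 141 and 165 CPM in the control and at 323, 347 and 344 CPM in MMP2sh2 (1.16 ± 0.05, adjusted p = 1.3e-19). HIST1H2BK was at 159 to 170 CPM against 245 to 255 CPM (0.59 ± 0.04) and HIST1H2AC at 59.8 to 62.3 CPM against 90.0 to 96.3 CPM (0.60 ± 0.05). For these 3 genes the groups were well separated. The remaining higher members, named to complete the list after their values were seen, were HIST1H2BJ (0.39), HIST1H4H (0.46) and HIST1H2BC (0.46, adjusted p = 0.16 without MMP2sh2 replicate 1). The lower member was HIST1H2BL, at 0.384 ± 0.0362 against 0.0727 ± 0.0291 CPM, whose call was lost without any of the 6 libraries (adjusted p = 0.061 to 0.14). Most replication-dependent histone mRNAs end in a stem-loop instead of a poly(A) tail, so that poly(A)-selected libraries hold only part of them. Histone genes also lie close together and share sequence.

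Promoters of H2B genes commonly hold an octamer bound by OCT1, ATTTGCAT, and this octamer or its reverse complement ATGCAAAT was searched on both strands from 250 bases before to 50 bases after the RefSeq start site (GRCh38.p14). It was present in 8 of 27 matched histone genes tested (29.6%), against 1.80% of 27305 RefSeq promoters. Of 5 matched genes called higher 3 held it, and of 21 matched genes that were not called 5 held it. The windows below show it in capitals, with 10 bases on either side, for the 3 higher genes that hold it and for HIST2H2BE, which holds it and was not called.
HIST1H2BK: tcttcaccttATTTGCATgagaggtcct
HIST1H2BJ: tcttcaccttATTTGCATaagcgattct
HIST1H2AC: gggcagagctATGCAAATgaggtatgaa
HIST2H2BE: cggagccctaATTTGCATaaggtggtta
The windows lie at chr6:27146887-27146914 (minus strand, 46 bases before the start), chr6:27132825-27132852 (minus, 47), chr6:26124032-26124059 (plus, 130) and chr1:149886711-149886738 (minus, 46), all in GRCh38.p14. The window of HIST1H2BJ is also that of its divergent neighbour HIST1H2AG on the other strand, 208 bases before that start. Likewise the window of HIST2H2BE is also that of HIST2H2AC, which was not called, 197 bases before that start. The 8 genes thus hold fewer than 8 separate sites. HIST1H2AG was at 12.2 to 14.8 CPM in the control and 10.7 to 11.5 CPM in MMP2sh2 (-0.31 ± 0.11, adjusted p = 0.052), and HIST2H2BE at 43.0 to 49.8 CPM against 39.5 to 46.6 CPM (-0.09 ± 0.07, adjusted p = 0.48). Genes sharing the octamer thus included members called higher and members that did not pass the test. HIST1H1C, with the largest fold change of the histone genes called higher, holds no copy in its window, nor does HIST1H4H.

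Calls among genes of the ribosome and of respiration were mostly in the higher direction, with small fold changes. Of 83 tested cytosolic ribosomal protein genes 55 were higher and 1 was lower (median 0.17), and their summed level was 63236 to 69143 CPM in the control and 71884 to 75050 CPM in MMP2sh2. RPL24, of the large subunit, was at 645, 578 and 601 CPM against 742, 734 and 750 CPM (0.29 ± 0.04), and RPL35A at 505, 441 and 536 CPM against 611, 634 and 615 CPM (0.33 ± 0.05). Of 13 tested mitochondrially encoded protein genes 10 were higher (median 0.20), with MT-ND3, a complex I subunit, at 602, 514 and 593 CPM against 803, 852 and 734 CPM (0.48 ± 0.05). Of 79 tested nuclear genes of the respiratory chain and ATP synthase 30 were higher and none lower (median 0.13), with COX8A, a cytochrome oxidase subunit, at 51.5 to 65.3 CPM against 76.2 to 85.5 CPM (0.44 ± 0.07). The count of 30 was 11 without MMP2sh2 replicate 2 and 11 without control replicate 2. In a single model of all 27 libraries 1 mitochondrially encoded gene and 19 respiratory chain genes were called higher.

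These lists hold short transcripts, and the differences between the lines moved with transcript length and GC content across all genes. In the quintile of genes with the lowest GC content 65 were higher and 467 lower (median log2 fold change -0.10), and in the quintile with the highest GC content 398 were higher and 101 lower (0.07). In the quintile with the shortest transcripts 365 were higher and 67 lower, and in the longest 198 were higher and 395 lower. The median of the lowest and highest GC quintiles was -0.16 and 0.13 in MMP2sh2 against control at day -2, -0.02 and 0.02 at day +2, and 0.00 and -0.03 in MMP2sh1 against the same control libraries at day 0. With a correction for GC content and length, chosen after seeing the data, 2252 of 15620 genes were called instead of 2343, of which 1632 were called in the same direction in both. Under it 40 of 83 ribosomal protein genes were higher and 3 lower (median 0.09), and 19 of 78 respiratory chain genes were higher and 1 lower. Whether any of the relation to GC content and length arose in library preparation was not tested.

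Mitotic genes had more lower than higher calls. Of 40 tested genes of the mitotic spindle, kinetochore and cytokinesis 1 was higher and 9 were lower (25% called, median -0.04). Of 41 tested genes of DNA replication 3 were higher and 1 was lower (9.76%, against 12.9% of all genes tested). The 3 became 0 without MMP2sh2 replicate 2 or control replicate 1, and 1 without MMP2sh2 replicate 1 or 3. CENPE, the kinetochore motor, was at 126, 118 and 112 CPM in the control and at 92.2, 89.6 and 103 CPM in MMP2sh2 (-0.32 ± 0.05, adjusted p = 5.4e-05). CENPF, another kinetochore protein, was at 477 to 538 CPM against 420 to 452 CPM (-0.22 ± 0.04). The lower replication gene was PRIM1, the primase catalytic subunit (64.4 against 53.1 CPM, -0.28). The 9 lower mitotic genes became 5 without MMP2sh2 replicate 1 or 2, and 4 in a single model of all 27 libraries. With a correction for GC content alone 3 mitotic genes were higher and 6 lower. With GC content and length 2 were higher and 7 lower. Of 460 tested zinc finger (ZNF) genes 11 were higher and 33 lower (median -0.07), a called share of 9.57% against 12.9% of all genes tested. With the correction for GC content and length, 12 of 458 were higher and 19 lower (median -0.03). ZNF503, a transcriptional repressor, fell from 52.5 to 57.1 CPM to 32.2 to 36.3 CPM (-0.69 ± 0.07). Leaving out single libraries left 5 to 7 of the 11 (without MMP2sh2 replicate 1 or 3, or control replicate 2 or 3) and 17 to 19 of the 33 (without MMP2sh2 replicate 1 or 2, or control replicate 1).

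The clustered protocadherins, homophilic adhesion proteins, are encoded side by side on chromosome 5. Of 16 tested protocadherin beta genes none was higher and 9 were lower (median -0.47). PCDHB10 was at 7.24, 7.56 and 6.63 CPM in the control and at 4.12, 3.40 and 4.09 CPM in MMP2sh2 (-0.88 ± 0.16), and PCDHB16 at 9.28 to 9.37 CPM against 4.65 to 6.55 CPM (-0.77 ± 0.14). Among all 15398 runs of 25 neighbouring tested genes, the lowest median log2 fold change (-0.51) was that of the run from PCDHB7 to PCDHGA9 (chr5:140552225-140892542, GRCh37), in which 8 genes were called lower and 1 of the 25 lay above 0. Neighbouring runs share genes. Of the runs that did not overlap this one, the lowest, from EOGT to ROBO1 on chromosome 3, had a median of -0.27. The highest of all runs, from FAM21C to ARHGAP22 on chromosome 10, had one of 0.25. The same protocadherin run had a median of -0.14 at day -2, 0.02 at day +2 and, against the same control libraries, -0.94 in MMP2sh1 at day 0. Protocadherin genes share long stretches of sequence, so reads may be split between them.

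**Figure D3:**
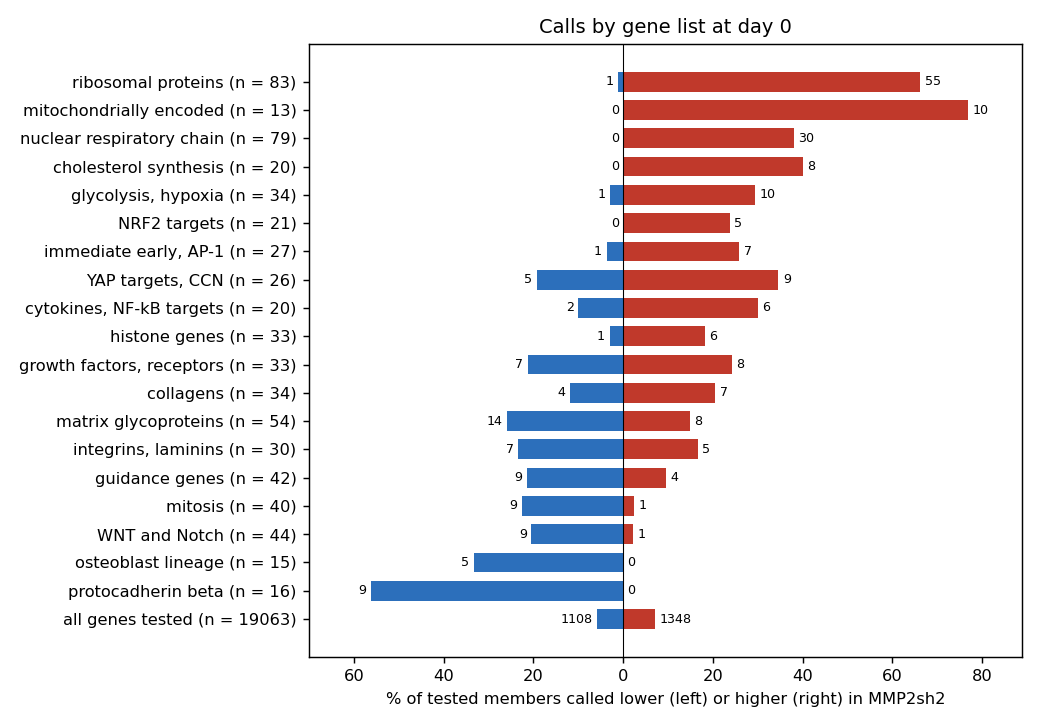
Percentage of the tested members of 19 gene lists and of all genes tested that were called lower (blue, left) or higher (red, right) in MMP2sh2 at day 0, with the number called at the end of each bar. Ribosomal protein genes (55 of 83) and mitochondrially encoded genes (10 of 13) reach furthest to the right and protocadherin beta genes (9 of 16) furthest to the left.

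The remaining lists had calls in both directions or few calls. The share called was 12.9% of all genes tested, 17.8% of genes at 10 to 100 CPM and 30.0% of those above 100 CPM. ATF4 targets, genes of the amino acid stress response, had 3 members higher and 4 lower of 26 (26.9%). Lysosomal genes had 4 higher and 3 lower of 35 (20%); the 4 became 1 without replicate 2 of either line, and the 3 became 0 without replicate 1 or 2 of either line. TGF-beta and BMP genes had 3 higher and 2 lower of 29 (17.2%), and 1 lower without MMP2sh2 replicate 1 or any one control replicate. With the correction for GC content and length, 5 of these were lower. Interferon-induced genes had 1 member higher and 4 lower of 36 (13.9%), a share near that of all genes tested. Those 4 became 0 without MMP2sh2 replicate 2, 1 without control replicate 1, and 2 without MMP2sh2 replicate 1 or control replicate 3. Unfolded protein response genes had 1 higher and 1 lower of 18 (11.1%). HLA and antigen presentation genes had 1 and 0 of 18 (5.56%), and sterol uptake and efflux genes 1 and 1 of 15 (13.3%). Fatty acid synthesis genes had 2 higher and 1 lower of 20 (15%). The 2 became 1 without MMP2sh2 replicate 2 and the 1 became 0 without MMP2sh2 replicate 1. Enzymes of histone H3 methylation and acetylation had 2 higher and 3 lower of 45 (11.1%). The 2 became 0 without MMP2sh2 replicate 1 or 2 or control replicate 1 or 2. The 3 became 1 without MMP2sh2 replicate 2 or control replicate 1 or 2.

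How the genes changed as the control culture grew denser was measured in libraries that the day 0 comparison did not use. Between control day -2 and day +2, 10839 of 19099 genes tested (56.8%) were called. Of the 5409 genes that fell in this expansion, 991 (18.3%) were higher in MMP2sh2 at day 0 and 173 (3.20%) were lower, and of the 5178 that rose, 141 (2.72%) were higher and 667 (12.9%) were lower. Of 7785 genes not called in the expansion, 214 were higher and 258 lower. Across 18372 genes the Pearson correlation of the log2 fold changes was -0.29 and the Spearman correlation -0.30, a description over genes, which are not independent replicates. With the correction for GC content and length, 932 of 5071 genes that fell were higher and 637 of 4546 genes that rose were lower. Without MMP2sh2 replicate 2, 611 of the genes that fell were higher. The smaller groups also shrank: the 141 became 79 to 93 without MMP2sh2 replicate 1 or 2 or control replicate 2, and the 173 became 98 in a single model of all 27 libraries and 101 to 114 without replicate 1 or 2 of either line.

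The levels of 4 genes, chosen after their values were seen, can be followed on a scale shared by all 27 libraries. FLNC went from 834 ± 54.6 CPM in the control at day -2 (mean ± SD, n = 3) to 328 ± 8.08 at day 0 and 135 ± 2.78 at day +2, and MMP2sh2 at day 0 was at 492 ± 9.04. PHLDA1 went from 22.6 ± 2.20 CPM to 70.1 ± 7.13 and 358 ± 8.75 in the control, with MMP2sh2 at day 0 at 37.0 ± 3.09. LAMA4 went from 9.91 ± 1.30 to 35.7 ± 2.25 and 87.0 ± 10.4 CPM, with MMP2sh2 at day 0 at 21.4 ± 1.51. In each of these 3 genes the confluent MMP2sh2 cells lay between the subconfluent and the confluent control. HIST1H1C did not: it was at 136 ± 14.7, 150 ± 12.4 and 191 ± 12 CPM in the control on the 3 days and at 338 ± 13.3 CPM in MMP2sh2 at day 0. How far each culture had passed confluence was not recorded in the files, and its part in these differences was not tested.

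**Figure D4:**
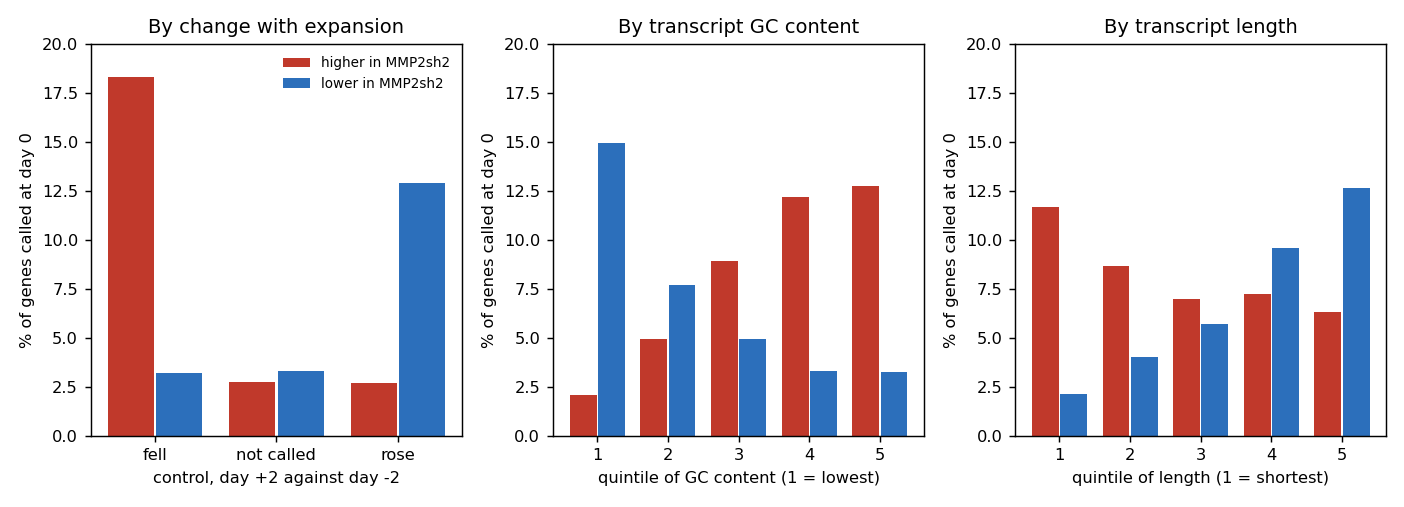
Percentage of genes called higher (red) or lower (blue) in MMP2sh2 at day 0, by change of the gene in the control between day -2 and day +2 (left), by quintile of transcript GC content (middle) and by quintile of transcript length (right). Genes that fell in the control's expansion are called higher 18.3% of the time and those that rose are called lower 12.9% of the time; calls turn from lower to higher with GC content and from higher to lower with length.

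The size of the difference between the lines was also measured on the other days. Of the 2456 genes called at day 0, 2436 were tested at day -2, where 684 were called (background 11.0%, 4.71% higher and 6.33% lower), 612 of them in the same direction. At day +2, 2428 were tested and 484 called (background 6.32%, 2.89% higher and 3.43% lower), 370 in the same direction. The day 0 libraries were not used in the tests at the other days. Genes with more reads were called more often at day 0, and the background shares were not matched for read level. In all, 107 genes were called in the same direction on all 3 days, 49 higher and 58 lower, and 1414 were called at day 0 and tested but not called on the other days. The test of the difference itself, the interaction of line and day, called 439 of the 2456 genes between day 0 and day -2 (background 3.69%, with 2.46% higher and 1.23% lower at day 0) and 622 between day 0 and day +2 (background 4.76%, with 2.67% higher and 2.09% lower). Both interaction fits reused the day 0 libraries by which these 2456 genes were chosen. That choice raises the counts, so they cannot be read against the background.

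MMP2 was lower on every day, at -0.70 at day -2, -1.06 at day 0 and -0.82 at day +2 on the log2 scale. COL3A1 (-0.40, -0.82, -0.81), IGFBP5 (-0.46, -0.93, -0.51) and PHLDA1 (-0.46, -0.93, -0.45) were below 0 throughout, and MFAP5 (0.76, 0.97, 1.19) was above 0 throughout. ROR1 turned, from -0.27 to -1.01 to 0.30, with a difference between day 0 and day +2 of -1.31 (adjusted p = 5.3e-12, edgeR interaction test). ENC1 turned as well (-0.13, -0.55, 0.31), and DUSP1 went from 0.21 to 0.59 to -0.25. RNF43 was at 0.05 at day -2, -0.97 at day 0 and 0.15 at day +2, and the interaction test put it lower at day 0 than on either other day (adjusted p = 0.0028 and 9.1e-09). The histone gene HIST1H1C was at 0.80, 1.16 and 0.14, and the ribosomal protein genes, with 55 of 83 higher at day 0, had 2 higher and 4 lower at day -2 and none higher and 25 lower at day +2. The interaction test put 56 of the ribosomal protein genes and 24 of the respiratory chain genes higher at day 0 than at day +2. Cholesterol synthesis genes had none higher and 3 lower at day -2 and 10 higher and none lower at day +2.

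**Figure D5:**
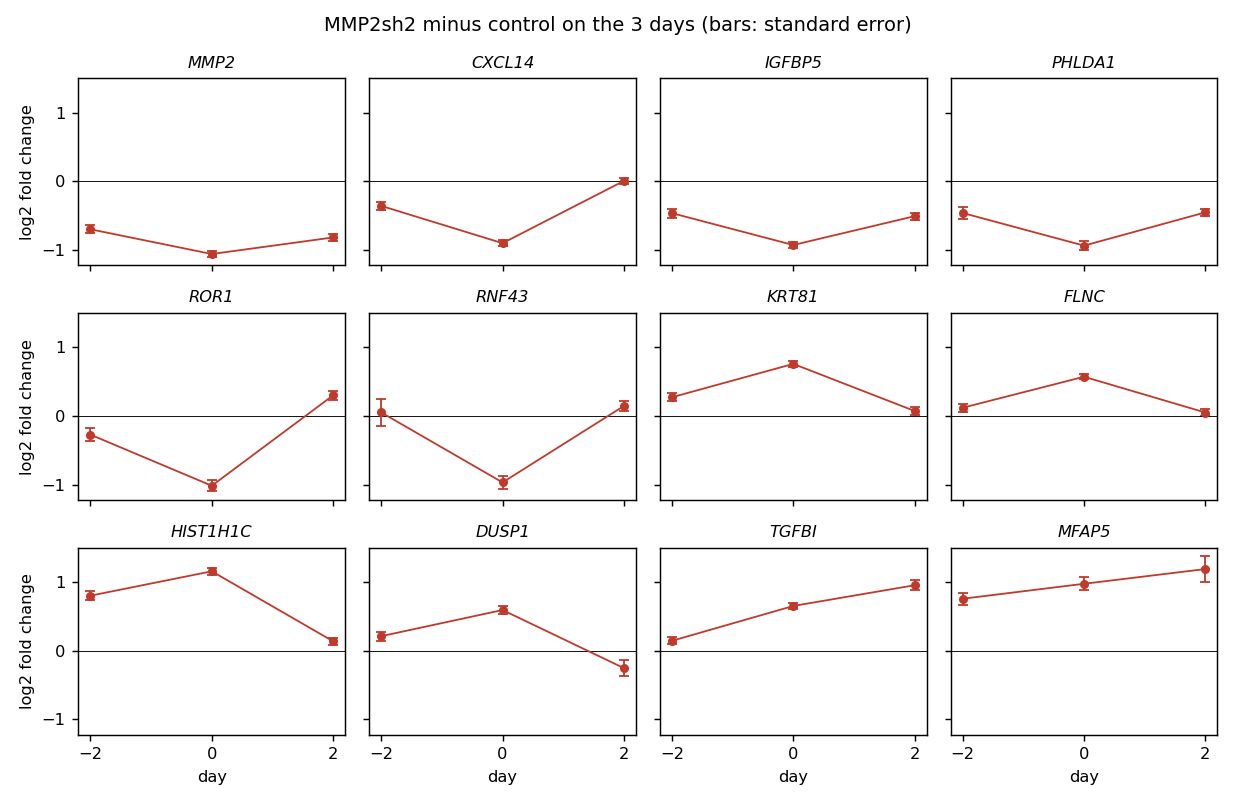
Log2 fold change, MMP2sh2 minus control, of 12 genes on day -2, day 0 and day +2; points are fitted values from the 3 separate comparisons and bars are standard errors. MMP2 stays below 0 and MFAP5 above 0 on all days, whereas CXCL14, ROR1 and RNF43 are lowest at day 0 and KRT81, FLNC and HIST1H1C highest at day 0.

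The second hairpin line, MMP2sh1, was tested directly against MMP2sh2 at day 0, and 3496 of 18875 genes differed (18.5%), 1816 higher (9.62%) and 1680 lower (8.90%) in MMP2sh2. MMP2 itself was 1.41 higher in MMP2sh2 than in MMP2sh1 on the log2 scale, so the lines differ in how far the target was reduced. CTSB (0.48) and COL3A1 (0.84) were higher in MMP2sh2 than in MMP2sh1 as well. HIST1H1C was 1.47 higher in MMP2sh2 than in MMP2sh1, and HIST1H2BK 0.66 higher.

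Set beside each other, the log2 fold changes of MMP2sh2 and of MMP2sh1 against control share the 3 control libraries. They were -1.06 and -2.47 for MMP2, -0.82 and -1.66 for COL3A1, -0.10 and -0.58 for CTSB and -0.93 and -0.61 for IGFBP5. For genes that rose in MMP2sh2 they were 0.76 and 0.60 for KRT81, 0.65 and 0.93 for TGFBI, 1.87 and 1.04 for MMP3, 1.16 and -0.32 for HIST1H1C, 0.37 and -0.35 for IGFBP4 and 1.93 and -0.09 for ANKRD20A19P. The signs differ between the hairpins for HIST1H1C, IGFBP4 and ANKRD20A19P, and the direct test called each of these 3 genes higher in MMP2sh2 than in MMP2sh1 (log2 difference 1.47, 0.71 and 2.01).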

How the data were processed

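The authors deposited raw HTSeq counts per gene symbol for 27 poly(A) RNA libraries of U2OS cells. Per the labels and the study's methods, reads were trimmed (Trim Galore 0.6.0), aligned to hg19 (STAR 2.7.3a) and counted over exons without regard to strand (HTSeq 2.0.0), so reads of a gene and of an antisense partner cannot be told apart. The summary lines, 18.2% to 19.0% of a day 0 library, were left out. Counts of the 6 day 0 libraries were filtered (filterByExpr, minimum count 10, minimum total 15), TMM-scaled and tested with the quasi-likelihood F test of edgeR 4.0.16 in R 4.3.3, with Benjamini-Hochberg adjustment and a threshold of 0.05. SE is the log2 fold change divided by the square root of F. CPM are TMM-scaled, and mean ± SD is over 3 libraries. Interactions of line and day were fitted on 12 libraries. The count step, tested on simulated data, recovered 151 of 200 genes changed 2-fold among 18627 with 12 other calls, and the interaction of day 0 and day -2 recovered 129 of 200 among 19838 with 6 other calls.

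The genes and lists were chosen with earlier results of these data known. Named were MMP2, CTSB, MMP14, TIMP1 and TIMP2, called genes with the largest changes (group mean at least 1 CPM) or smallest p, and up to 3 called members per list and direction; exceptions are stated, and some genes of the cholesterol list are not reported here. No set test was run. Positions come from GENCODE on GRCh37 (15968 of the tested genes matched), transcript length and GC content were known for 15620, and promoter sequences are from RefSeq on GRCh38.p14. Alternatives were DESeq2 1.42.0 and its scaling, other filters, a replicate block, 1 fit of all 27 libraries, leaving out each library, and the corrections for GC content and length (lowess span 0.3), added after seeing the data. Replicate numbers did not pair the libraries: the correlation of deviations between same-numbered libraries was -0.00, 0.04 and -0.01.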

Additional observations from a re-analysis of the deposited data

Results flagged for a closer look

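For the genes below, the test of the interaction of line and day (edgeR quasi-likelihood, adjusted p under 0.05) found a difference between MMP2sh2 and control at day 0 that was not that of another day. Each value is the log2 fold change at day 0 minus that at the other day. Most of these genes were named for their difference at day 0, which favours values larger at day 0.

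Against day -2, the fold change at day 0 was lower for the target MMP2 (-0.35), the protease CTSB (-0.40) and the inhibitor TIMP2 (-0.30), and for the matrix and adhesion genes COL1A1 (-0.34), COL3A1 (-0.41), MFAP2 (-0.50), LAMA4 (-1.06) and ITGA11 (-2.08). ITGA11 was at 1.17 at day -2 and -0.93 at day 0. It was also lower for the secreted factors CXCL14 (-0.53), IGFBP5 (-0.45), SEMA3C (-0.41) and NOV (-0.38), the receptors and WNT regulators ROR1 (-0.73), RNF43 (-0.996) and LGR4 (-0.52), and for PHLDA1 (-0.46), ENC1 (-0.40), ZNF503 (-0.70), HIST1H2AG (-0.61) and HIST2H2BE (-0.67).

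The fold change at day 0 was higher than at day -2 for the matrix genes MMP3 (0.96), COL12A1 (0.34), COL13A1 (0.91), TGFBI (0.52) and SDC4 (0.30), for SEMA7A (0.49), KRT81 (0.50), FLNC (0.46), PTRF (0.24), CRIM1 (0.29) and IGFBP6 (0.40), and for the response genes MYC (0.30), DUSP1 (0.39), GADD45A (0.51), TXNRD1 (0.29), SRXN1 (1.08) and MT1E (0.53). Of metabolic, ribosomal and histone genes it was higher for HK2 (0.40), MT-ND3 (0.67), COX8A (0.58), RPL24 (0.35) and HIST1H1C (0.37), and it was higher for RNA28S5 (0.94) and LINC00707 (1.14).

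Against day +2, the fold change at day 0 was lower for MMP2 (-0.24), TGFBI (-0.30), MFAP2 (-0.37), LAMA4 (-0.73), LAMB1 (-0.28), CXCL14 (-0.90), CCL2 (-1.17), IGFBP5 (-0.42), PDGFRA (-0.41), ROR1 (-1.31) and RNF43 (-1.11). The same held for PHLDA1 (-0.48), ENC1 (-0.85), CENPE (-0.28), CENPF (-0.25), PCDHB10 (-0.74), FMNL2 (-1.58) and KRT14 (-0.84).

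It was higher than at day +2 for IGFBP4 (0.39), IGFBP6 (0.91), MMP7 (1.61), SDC4 (0.30), KRT81 (0.69), FLNC (0.52), PTRF (0.32), CRIM1 (0.43), FJX1 (0.29) and NOV (0.32). Among response genes it was higher for FOSL1 (0.78), DUSP1 (0.85), BIRC3 (1.11), NFKB2 (0.42), TXNRD1 (0.31), SRXN1 (1.05), MT1E (0.41) and MT2A (0.68). Among metabolic and ribosomal genes it was higher for ENO1 (0.20), HK2 (1.29), MT-ND3 (0.73), COX8A (0.51), RPL24 (0.38) and RPL35A (0.37), as it was for RNA28S5 (0.42). Of histone genes it was higher for HIST1H1C (1.02), HIST1H2BK (0.58), HIST1H2AC (0.48), HIST1H2BJ (0.54) and HIST1H4H (0.61).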

How the results depend on the processing

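The 2456 genes called at day 0 numbered 1901 to 2627 under the alternatives that kept all libraries, and 1509 to 2257 when 1 library was left out (higher 806 to 1261, lower 703 to 1078); MMP2sh2 replicate 2 gave the lowest of each. Of 78 called genes named here 70 kept their call and direction under every alternative, and 8 lost the call under at least 1: CCL2, MMP7, MMP14, COL1A1, WNT7B, CDKN2B, HIST1H2BC and HIST1H2BL. MMP14 had an adjusted p of 0.051 in 1 fit of all 27 libraries. CTSB passed the threshold under 6 of its 14 alternatives, with an adjusted p of 0.00078 to 0.050. Under the others it did not pass, with an adjusted p of up to 0.31. TIMP1, not called, changed sign in 1 fit of all 27 libraries (0.0036) and when MMP2sh2 replicate 1 (0.0025), MMP2sh2 replicate 3 (0.020) or control replicate 1 (0.012) was left out, in a range from -0.063 to 0.020 when 1 library was left out. Over all its alternatives TIMP1 lay between -0.149 and 0.020, and it was called lower in 1 of them, the correction for GC content and length (-0.149, adjusted p = 0.0018). Other scalings did not move the median of all genes by over 0.1.

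With the replicate number as a block 2103 genes were called, 1148 higher and 955 lower; the numbers do not pair the libraries. The block gave 726 and 883 genes for the interactions with day -2 and day +2. With 1 library left out, the 750 genes of the interaction with day -2 became 375 to 742: 475 and 397 without MMP2sh2 day 0 replicates 1 and 3, 492 and 494 without control day 0 replicates 1 and 3, and 375 and 492 without control day -2 replicates 1 and 2. The 984 of the interaction with day +2 became 643 (without control day +2 replicate 3) to 1140. The 2080 genes at day -2 became 728 to 1743 (1360 without MMP2sh2 replicate 3, and 728, 1174 and 1252 without control replicates 1, 2 and 3), and the 1222 at day +2 became 679 to 1440 (780 without MMP2sh2 replicate 1, and 761 and 679 without control replicates 2 and 3). The causes were not tested. With 3 libraries per group, a difference that was not called may be one that was not detectable at this depth.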
